A study of Mus musculus with 3 samples.

Results

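The RNA-binding proteins and cofactors that decide how long T cell mRNAs last were followed in activated regulatory T cells, a CD4 T cell lineage set by the factor Foxp3 that holds immunity in check. The 10 genes were chosen by symbol from 55536 mouse genes: the Roquin genes Rc3h1 and Rc3h2, the Regnase genes Zc3h12a and Zc3h12d, the tristetraprolin (TTP) family genes Zfp36, Zfp36l1 and Zfp36l2, the HuR gene Elavl1, and Btg1 and Btg2. Polyadenylated RNA was sequenced from primary cells of a mouse labelled male and 3 weeks old, with no strain, genotype or way of activation given in the labels used here. The 3 libraries are technical replicates 1, 2 and 3 of 1 biological replicate and form a single group, so every SD below is the spread between libraries (n = 3) and not between animals. Library depth, in reads assigned to genes, ran from 28419259 to 31959927. Levels are given in TPM, the share of all transcripts scaled to a common total and corrected for length as deposited, and positions are on mm10 with GENCODE M21.

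Most cytokine and costimulator mRNAs are short-lived, because proteins that bind their 3′ untranslated region (3′ UTR) recruit the machinery that removes the poly(A) tail. Roquin proteins bind small stem-loops and TTP family proteins bind AU-rich elements, built from AUUUA pentamers, and both bring in the CCR4-NOT deadenylase. Regnase-1 cuts stem-loop mRNAs itself with the help of the helicase UPF1, BTG proteins tie the CCR4-NOT nucleases to mRNA, and HuR binds AU-rich elements and mostly protects the mRNA. In T cells, loss of Roquin or Regnase-1 function is known to give spontaneous activation and autoimmunity, and BTG1 and BTG2 are known to keep T cells quiescent.

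All 6 defining genes of Treg and CD4 T cells were detected (1 TPM or more in all libraries), with a summed level of 1943.4 to 2229.0 TPM per library. Cd3e led with 973.2 ± 47.2 TPM (SD, n = 3), Cd4 had 367.2 ± 94.4 TPM and Foxp3 130.2 ± 22 TPM. Markers of other cells were not all absent. The 5 erythroid genes summed to 12944.5, 1094.7 and 756.6 TPM in libraries 1, 2 and 3, the 6 neutrophil and monocyte genes to 102.4, 42.37 and 63.25 TPM, the 4 B cell genes to 14.66, 10.57 and 29.12 TPM, and the 4 CD8 T and natural killer genes to 28.54, 21.47 and 31.27 TPM, with Ncr1 at 0 reads in each library. Detected members of these lists numbered 5 of 5, 2 of 6, 3 of 4 and 3 of 4. Library 1 therefore stood apart in red-cell RNA, and the part of such RNA in the differences below was not tested.

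Levels of the 10 genes were led by Btg1 and Zfp36l2, with the Regnase genes and Rc3h1 at the low end. All 10 were detected, where 48.1% of 22028 protein-coding genes were, and their median of 60.2 TPM compares with 30.1 TPM over the 10601 detected protein-coding genes. Btg1 averaged 625.0 ± 85.1 TPM (SD, n = 3), followed by Zfp36l2 at 334.4 ± 196.0, Elavl1 at 133.5 ± 14.1 and Zfp36 at 122.7 ± 13.2 TPM. Btg2 had 62.4 ± 11.6 TPM and Zfp36l1 58.0 ± 2.09 TPM. Rc3h2 had 32.7 ± 3.29, Zc3h12a 23.8 ± 1.76, Zc3h12d 21.9 ± 6.14 and Rc3h1 12.2 ± 1.88 TPM. Neighbours in this order were called different where all libraries gave the log2 ratio, log2((TPM + 1) / (TPM + 1)), 1 sign and its mean exceeded 2 SD. By this rule only 3 of the 9 steps were larger than the spread: Zfp36 above Btg2 by 0.98 ± 0.28, Zfp36l1 above Rc3h2 by 0.81 ± 0.11 and Rc3h2 above Zc3h12a by 0.44 ± 0.16. The step from Rc3h2 to Zc3h12a, at 0.39, was not larger than the spread without library 1 or without library 3. Btg1 above Zfp36l2 (1.40 without library 2) and Zc3h12d above Rc3h1 (1.06 without library 3) became larger than the spread. On coding transcripts alone, a comparison chosen after seeing the data, Rc3h2 lay below Zc3h12a, with a log2 ratio of -0.98 that was larger than the spread. In the smaller deposited gene table, which counts reads without dividing by length, Zfp36l1 lay below Rc3h2 (-0.32), Btg1 below Zfp36l2 (-1.70) and Btg2 below Zfp36l1 (-1.52), each larger than the spread. In reads of the larger table, also not divided by length, Btg1 had 28734, 35836 and 40468 and Zfp36l2 18074, 33912 and 13628. The cause of these turns was not tested. In a bulk sample, fewer cells with a transcript and less of it per cell cannot be told apart.

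**Figure D1:**
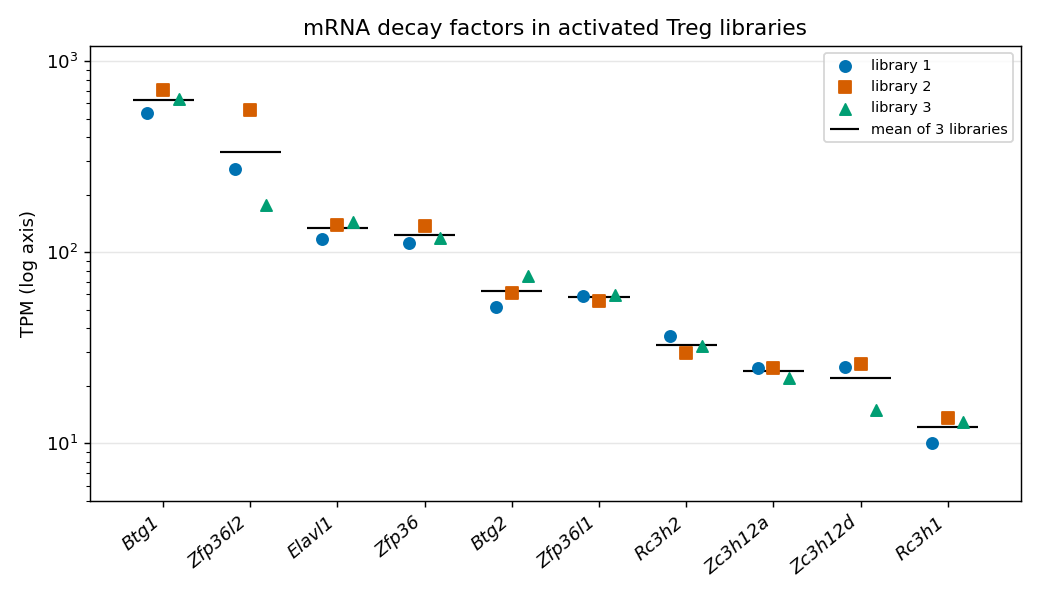
TPM (log axis) of each gene in libraries 1, 2 and 3 (points) with the mean (line), ordered by mean. Btg1 is highest at 625.0 TPM and Rc3h1 lowest at 12.2 TPM, and the points of Zfp36l2 lie farthest apart.

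The AU-rich sites that TTP family proteins bind stood in the mRNAs of the family itself. The main coding transcript of each of the 3 TTP family genes held 3 copies of UAUUUAU, the heptamer that TTP binds, in their 3′ UTR. Of detected genes with a 3′ UTR of like length, within a factor of 0.8 either way, 18.8% held a copy for Zfp36, 38.9% for Zfp36l1 and 38.7% for Zfp36l2. Below are the 30 bases richest in AUUUA of each family mRNA, and of Tnf, the classical TTP target, from the GENCODE M21 transcripts, written 5′ to 3′ with T for U and each pentamer in capitals. They are shown because TTP protein is known to bind such runs in both its targets and its own mRNA.
Zfp36 (chr7:28376958-28376987, minus strand): cctttATTTAtgacgactttATTTAttgta
Zfp36l1 (chr12:80108431-80108460, minus strand): cttATTTAacttatcaaaacgtATTTAttg
Zfp36l2 (chr17:84184918-84184947, minus strand): gaaaaactATTTAacttATTTAttatcttg
Tnf (chr17:35199678-35199707, minus strand): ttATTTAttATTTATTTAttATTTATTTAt
Each family window held 2 pentamers, while the Tnf window held 5, several of them overlapping.

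Over the whole 3′ UTR, AUUUA was more frequent in 9 of the 10 genes than in the median detected gene of like 3′ UTR length. All 10 main coding transcripts, taken as the coding transcript with most reads, held it, as did 64.9% of all 10502 detected genes with a usable 3′ UTR, whose median length was 903 bases. Rc3h2 held most, with 25 pentamers in 5331 bases against a median of 9 over 376 genes of like length, and 0.798% of those genes held as many. Rc3h1 held 20 in 7181 bases against 13, Btg1 11 in 4166 bases against 7, and Zfp36l1 9 in 1835 bases against 3. Zfp36l2 and Btg2 each held 5 against 3, Zfp36 and Zc3h12a each 3 against 1, and Elavl1 3 against 2. Zc3h12d was the exception, with 2 in 2327 bases against 4. Genes of like length that held as many made up 4.25% for Zfp36l1 and 81.3% for Zc3h12d. For the others of the 9 besides Rc3h2 this share ran from 16.4% (Rc3h1) to 37.7% (Elavl1), so most lay only modestly above the median. The heptamer, which contains the pentamer, was in 6 of the 10 genes and in 26.4% of all detected genes. Most of the 10 have longer 3′ UTRs than the median gene, and among genes of like length to each of them 18.8% to 76.3% held the heptamer. TGTANATA, with T for U and N for any base, the site of Pumilio proteins, was in 3 of the 10 (Btg1, Rc3h1 and Rc3h2), those with the longest 3′ UTRs, and in 23.5% of all detected genes. Among genes of like length to each of the 10, 17.7% to 73.7% held it. Motifs were searched on the transcript strand only, and a match in letters is not a measured binding site.

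**Figure D2:**
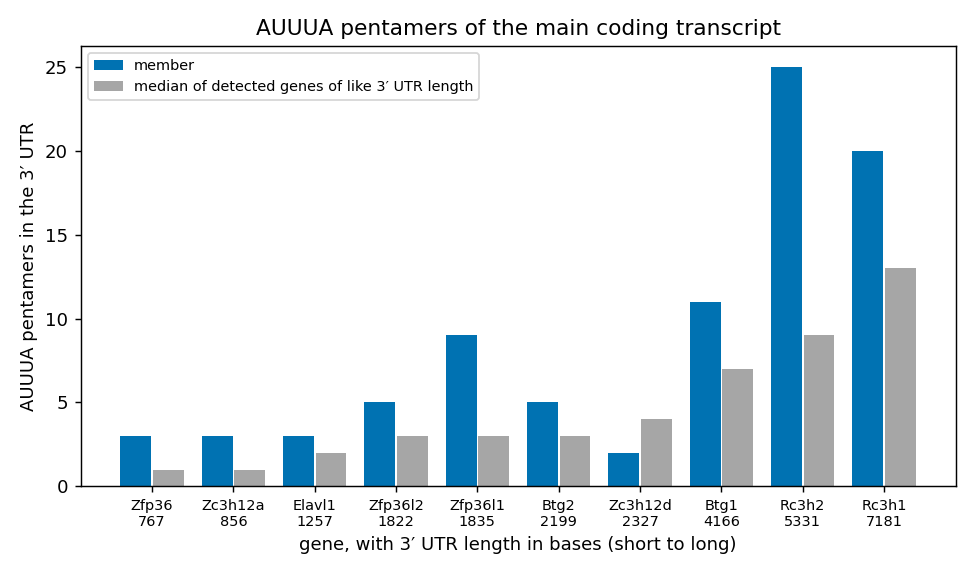
Number of AUUUA pentamers in the 3′ UTR of each gene's main coding transcript (blue bars) beside the median over detected genes of like 3′ UTR length (grey bars), ordered by that length in bases. The blue bar is above the grey bar for 9 genes, with Rc3h2 at 25 against 9, and below it for Zc3h12d at 2 against 4.

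Both Roquin mRNAs carried the letters of a stem-loop of the kind that Roquin binds. The constitutive decay element of Tnf has a 3-base loop, UGU, between the paired arms UUC and GAA, and the motif TTCTGTGAA was found in 2.24% of all detected genes. Rc3h1 held 2 copies, where 11.8% of 152 genes of like 3′ UTR length held any, and Rc3h2 held 1, where 6.65% of 376 did. The sites are given with Tnf and with Nfkbid, the gene of the NF-κB regulator IκBNS and a known Roquin target, with the motif in capitals.
Rc3h1, first (chr1:160968032-160968060, plus strand): tttgtttttgTTCTGTGAAtgaactttat
Rc3h1, second (chr1:160971653-160971681, plus strand): agccaataacTTCTGTGAAgttgcctttt
Rc3h2 (chr2:37373802-37373830, minus strand): tttaattaacTTCTGTGAAgttgtttact
Nfkbid, first (chr7:30428395-30428423, plus strand): tctaggtgatTTCTGTGAAatcgagccca
Nfkbid, second (chr7:30428423-30428451, plus strand): acttgattgtTTCTGTGAAacactctaga
Tnf (chr17:35199578-35199606, minus strand): cagacatgttTTCTGTGAAaacggagctg
Counting outwards from the loop, with G-U pairs allowed, the unbroken stem had 7 pairs in both Rc3h1 sites, in the Rc3h2 site, in the first Nfkbid site and in Tnf, and 6 pairs in the second Nfkbid site. In Icos and Ier3, target mRNAs treated below, the stem had 5 pairs each. Stems were not counted in the other detected genes with the motif, so how common 7 pairs are was not tested. The motif is 1 form of this element, and other loops and stems were not searched.

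Among the Roquin genes, Rc3h2, which encodes Roquin-2, exceeded Rc3h1, which encodes Roquin-1, in whole-gene TPM but not in TPM on coding transcripts. Rc3h1 (chromosome 1, 160906418 to 160974978, plus strand) had 10.03, 13.54 and 12.97 TPM in libraries 1, 2 and 3. Rc3h2 (chromosome 2, 37370069 to 37422903, minus strand) had 36.2, 29.68 and 32.13 TPM. The whole-gene values did not overlap, and the log2 ratio of Rc3h1 to Rc3h2 was -1.36 ± 0.35, larger than the spread. Rc3h1 made up 27.3 ± 4.99% of the summed Roquin TPM. On coding transcripts alone, Rc3h1 had 9.35, 13.21 and 12.77 TPM and Rc3h2 11.62, 11.63 and 10.51 TPM. These values overlapped, with Rc3h1 lower in library 1 and higher in the other libraries, and the log2 ratio was 0.05, not larger than the spread. In the smaller gene table the whole-gene ratio was -0.49 and no longer larger than the spread.

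Much of that Rc3h2 level fell on transcripts annotated as not coding for Roquin-2. Of its TPM, 34.7 ± 3.93% was on coding transcripts, 37.5 ± 2.67% on transcripts with a retained intron and 26.0 ± 7.39% on Rc3h2-204, a processed transcript of 513 bases with 2.88% of the gene's reads. The main coding transcript Rc3h2-202 took 30.7 ± 2.11% of the TPM but 63.8% of the reads, being 8948 bases long. Shares of TPM are estimated shares of molecules, so a short transcript with few reads can hold a large one. Rc3h1 was 96.4 ± 2.76% coding, split between Rc3h1-202, with 7181 bases of 3′ UTR, at 44.4 ± 4.58% and Rc3h1-201, annotated with 20 bases of 3′ UTR, at 51.9 ± 6.44%. Both Roquin stem-loop motifs of Rc3h1 and all its AUUUA pentamers lie in Rc3h1-202, which took 72.9% of the reads, and none lies in the 20 bases of Rc3h1-201. The last 50 bases of Rc3h1-202 hold the poly(A) signal ATTAAA, and those of Rc3h1-201 hold neither it nor AATAAA. Whether the annotated end of Rc3h1-201 is complete was not tested.

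The Regnase genes had like levels, and differed in how far the libraries lay apart. Zc3h12a encodes Regnase-1, the endonuclease that cuts Il6, Icos and Rel mRNA, and Zc3h12d encodes Regnase-4 of the same family. Zc3h12a (chromosome 4, 125118423 to 125127840, minus strand) had 24.84, 24.84 and 21.8 TPM in libraries 1, 2 and 3, and 97.5 ± 1.06% of it was on the coding Zc3h12a-201. Zc3h12d (chromosome 10, 7832470 to 7870396, plus strand) had 25.0, 25.88 and 14.83 TPM, all on 1 coding transcript. Library 3 was low for Zc3h12d, while the other 2 libraries matched Zc3h12a closely. The log2 ratio of Zc3h12a to Zc3h12d was 0.15 ± 0.32, not larger than the spread, and -0.03 without library 3. The paralogs Zc3h12b and Zc3h12c had 0.573 ± 0.0907 and 1.06 ± 0.303 TPM and were not detected by the threshold.

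In the TTP family, Zfp36l2 held the largest share and was also the most uneven member. Zfp36l2 (chromosome 17, 84183931 to 84187947, minus strand) had 273.6, 553.6 and 175.9 TPM in libraries 1, 2 and 3, on its only annotated transcript. Zfp36, which encodes TTP itself (chromosome 7, 28376784 to 28380253, minus strand), had 112.2, 137.5 and 118.5 TPM. Zfp36l1 (chromosome 12, 80107754 to 80113013, minus strand) had 58.96, 55.59 and 59.42 TPM. The order Zfp36l2, Zfp36, Zfp36l1 was the same in every library, and no values of these genes overlapped. Zfp36l2 took 61.8 ± 12.2% of the family's TPM, from 49.7% in library 3 to 74.1% in library 2, against 25.7 ± 7.55% for Zfp36 and 12.5 ± 4.72% for Zfp36l1. The log2 ratio was -2.35 ± 0.88 for Zfp36l1 to Zfp36l2 and 1.06 ± 0.20 for Zfp36 to Zfp36l1, both larger than the spread. That of Zfp36 to Zfp36l2, -1.28 ± 0.72, was not. Without library 1 the ratio of Zfp36l1 to Zfp36l2 was -2.42 and no longer larger than the spread, and without library 3 that of Zfp36 to Zfp36l2 was -1.64 and larger than the spread. Zfp36l3, a rodent paralog, had at most 0.02 TPM in a library.

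Most TPM of this family lay on transcripts with the full set of pentamers. Zfp36-202, a single-exon coding model, took 94.4 ± 0.575% of Zfp36 TPM, and the other Zfp36 transcript also holds 3 pentamers. Zfp36l1-201, with 9 pentamers, took 85.7 ± 3.05% of Zfp36l1 TPM. Zfp36l1-202, whose shorter 3′ UTR of 794 bases holds 1, took 11.1 ± 0.914%. The last 50 bases of Zfp36l1-201 hold the poly(A) signal AATAAA, and those of Zfp36l1-202 hold neither it nor ATTAAA.

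Elavl1, the gene of the stabilizing factor HuR, was expressed at the level of Zfp36. Elavl1 (chromosome 8, 4285382 to 4325413, minus strand) had 117.4, 139.0 and 143.9 TPM in libraries 1, 2 and 3. The log2 ratio of Elavl1 to Zfp36 was 0.12 ± 0.14 and that of Elavl1 to Zfp36l2 was -1.16 ± 0.85, neither larger than the spread. Without library 3 the ratio to Zfp36l2 was -1.60 and larger than the spread. The short form Elavl1-204, with 1257 bases of 3′ UTR and 3 pentamers, took 81.8 ± 1.51% of the TPM. The long form Elavl1-201, with 4218 bases, 17 pentamers and 8 heptamers, took 6.27 ± 1.36% of the TPM and 15.4% of the reads. Transcripts with a retained intron took 11.9 ± 2.19%. The annotated ends of the forms carry different poly(A) signals, given in capitals in 30 bases near each end, since the choice of end sets how many AU-rich sites HuR mRNA keeps.
Elavl1-204: gcatttaagaccATTAAAtttgattttgtt
Elavl1-201: ctgacattgctgtccaaagtcaacAATAAA
In the short form ATTAAA starts 26 bases from the annotated end, and in the long form AATAAA makes up the last 6 bases. Whether the annotated end of Elavl1-201 is complete was not tested, nor was whether this hexamer serves that end. Elavl1 overlaps Ccl25 on the other strand, which had 382 to 534 reads beside 5334 to 7265 of Elavl1, and the labels do not say whether strand was used. The neuronal paralogs Elavl2, Elavl3 and Elavl4 had means of 0.25, 0.0167 and 0.103 TPM.

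Btg1 had the highest mean of the 10 genes and exceeded Btg2 in every library. Its lead over Zfp36l2, a log2 ratio of 1.05 ± 0.75, was not larger than the spread, and in the smaller gene table Zfp36l2 was higher. Btg1 (chromosome 10, 96617006 to 96622809, plus strand) had 536.4, 706.1 and 632.6 TPM in libraries 1, 2 and 3, above 98.3% of detected protein-coding genes. Btg2 (chromosome 1, 134075170 to 134079120, minus strand), an early-response gene that p53 also induces, had 51.62, 60.81 and 74.67 TPM. Library 1 was lowest for both genes. The log2 ratio of Btg2 to Btg1 was -3.31 ± 0.23, larger than the spread, and Btg2 made up 9.09 ± 1.34% of their summed TPM. In the smaller gene table the ratio was -1.50 and not larger than the spread. That table holds 1.98% to 2.82% of the Btg1 reads and 6.97% to 12.1% of the Btg2 reads of the larger one. The share was highest among the 10 genes for Zc3h12a, at 58.2% to 63.5%. Over all genes the smaller table holds 8294501 to 8714761 reads per library, against 28419259 to 31959927 in the larger one.

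Btg1 TPM was split almost evenly between a long and a very short model. Btg1-201, of 5001 bases with a 3′ UTR of 4166, took 51.7 ± 0.756% of the TPM and 89.6% of the reads. Btg1-202, of 668 bases with a coding region of 291 and a 3′ UTR of 25, took 48.3 ± 0.756% of the TPM and 10.4% of the reads. The 11 pentamers lie in Btg1-201, and none lies in Btg1-202. The last 50 bases of Btg1-201 hold the poly(A) signal ATTAAA, and those of Btg1-202 hold neither it nor AATAAA. Btg2-201, the only Btg2 transcript, also lacks both there. Whether the annotated ends are complete was not tested.

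**Figure D3:**
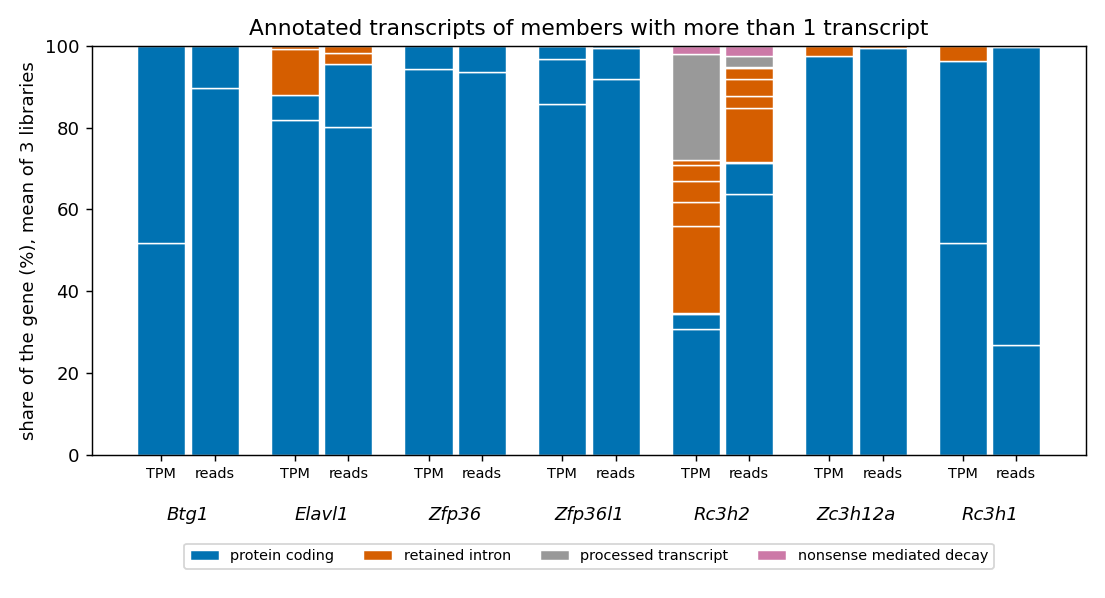
Share of each gene's TPM (left bar) and of its reads (right bar) on each annotated transcript, as the mean of 3 libraries, coloured by annotated type with white lines between transcripts. Rc3h2 is 34.7% coding by TPM, while Btg1 and Rc3h1 are each divided between coding transcripts whose share of reads differs from their share of TPM.

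The 3 libraries differed beyond counting noise for 9 of the 10 genes, where 79.8% of the 17190 genes tested did. The test was a chi-square test of the 3 read counts against library size, with Benjamini-Hochberg adjustment over all genes tested, and it compares libraries, not conditions. The share is near that of all genes, so it says nothing particular about decay factors. The gene that did not pass was Zc3h12a, with 1262, 1157 and 1278 reads and an adjusted p of the chi-square test of 0.0736. It did pass without library 2. Sizes were mostly small. CPM are reads scaled to a common effective library size, the library total times its TMM scaling factor. In CPM, the median ratio of the highest to the lowest library was 1.29 over the 10 genes. It was 1.28 over 6096 protein-coding genes with 1000 or more reads. The ratio was over 1.5 for 3 of the 10 (Zfp36l2, Zc3h12d and Btg2), where 21.2% of 6261 genes with as many reads did.

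Zfp36l2 had the largest difference, 2.97-fold, above 99.2% of those protein-coding genes. It had 602.6, 1221 and 411.6 CPM in libraries 1, 2 and 3, from 18074, 33912 and 13628 reads. Library 2 was high and library 3 low. After a trend in GC content and length was removed, the range of its log2 CPM was 1.43, against 1.57 before. In the smaller gene table, which holds 8.73% to 17.6% of these reads, it had 2630, 2961 and 2401 reads, and the fold was 1.35 with library 2 still highest.

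Zc3h12d followed at 1.64-fold, with 63.9, 66.3 and 40.3 CPM in libraries 1, 2 and 3, library 3 being low. In the smaller gene table the fold was 1.5. Without library 3 it did not pass (adjusted p of the chi-square test 0.359). Btg2 differed 1.54-fold, with 88.0, 103.8 and 135.3 CPM, library 3 being high. In the smaller gene table it had 199, 201 and 544 reads, a fold of 2.65. Zfp36l1 and Rc3h2 were steadier, at 1.13-fold and 1.11-fold. Rc3h2 did not pass without library 1 (adjusted p 0.0709 by the chi-square test) or without library 3 (0.125). Zfp36l1 did not pass without library 2 (0.440).

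**Figure D4:**
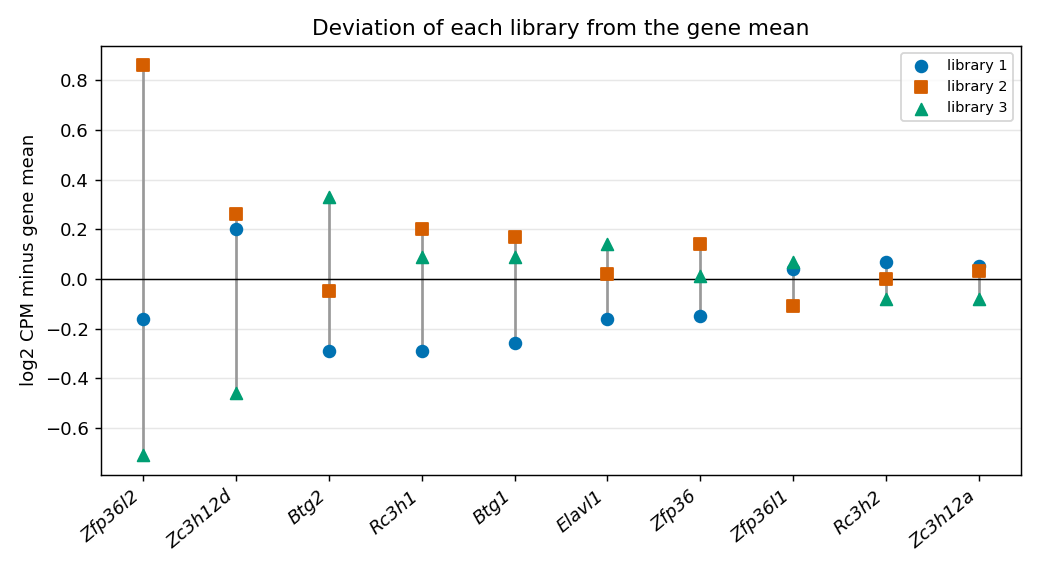
log2 CPM of each library minus the gene's mean over libraries, for genes ordered by how far apart the libraries lie (grey lines join the lowest and highest). Zfp36l2 reaches 0.86 in library 2 and -0.71 in library 3, and Zc3h12a, last in the order, stays between -0.08 and 0.05.

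No single library was low for all of the genes. Library 1 was lowest for 5 of the 10 (Btg1, Btg2, Elavl1, Zfp36 and Rc3h1), where it was lowest for 28.2% of genes with 1000 or more reads. Library 3 was lowest for 4, where it was lowest for 51.0%. Library 2 was lowest for 1, where it was lowest for 20.8%. Libraries 1, 2 and 3 were highest for 2, 5 and 3 of the 10, where they were highest for 33.1%, 38.1% and 28.8% of those genes. Immediate early genes, which T cell receptor signals and cell handling both switch on, were lowest in library 3 for 10 of 12. Of genes with 1000 or more reads, 51.0% were. The 10 include genes with few reads, Fosb with 33 in each library and Atf3 with 28, 1 and 0. Zfp36 and Btg2, which such signals also induce, were lowest in library 1, as were the early genes Fos and Dusp1. The most abundant early genes were Junb at 299.1 ± 54.7, Ier2 at 228.5 ± 29.4 and Myc at 196.3 ± 21.1 TPM, and the least abundant Fosb at 0.477 ± 0.0513 and Atf3 at 0.393 ± 0.655 TPM. Fos had 12.3, 15.26 and 11.61 TPM, Egr1 98.84, 86.16 and 70.33 TPM, and Dusp1, a phosphatase gene, 60.31, 143.6 and 66.91 TPM. Of the 12 early genes, 6 were highest in library 1 and 6, Dusp1 among them, in library 2. The part of early-gene induction in the differences between libraries was not tested.

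The machinery that these factors recruit was expressed. All 17 deadenylation genes were detected, with a median of 47 TPM, and 16 of 17 differed between libraries, where 79.8% of all genes did. That share covers genes averaging at least 10 reads, and it was 87.1% at a minimum mean of 50 reads. Most genes of this list and the lists below have far more reads, so their counts cannot be read as an excess. Pabpc1, which encodes the poly(A) binding protein, had 308.6 ± 13.7 TPM, Cnot2, a core subunit of CCR4-NOT, 103.0 ± 6.93 TPM and Cnot6l, a nuclease subunit, 88.9 ± 5.47 TPM. The lowest were Tob1, a BTG relative, at 20.9 ± 5.93 TPM and Cnot9 at 32.6 ± 4.82 TPM. Cnot7, the nuclease that BTG proteins bind, had 71.5 ± 5.44 TPM, below Btg1 in every library, and did not pass (adjusted p of the chi-square test 0.208). All 11 decapping and 5′ to 3′ decay genes were detected and all 11 differed, from Dcp1b at 17.8 ± 1.92 and Patl1 at 18 ± 2.78 TPM to Lsm14a at 187.5 ± 24.4 TPM. Lsm1 at 70.6 ± 8.66 and Eif4enif1 at 64.8 ± 17.6 TPM came next to Lsm14a.

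Partners and regulators of the factors were also expressed, all 8 of them, with a median of 74.7 TPM, and all 8 differed between libraries, where 79.8% of all genes did. Irak1, a kinase that marks Regnase-1 for breakdown, had 158.4 ± 34.1 TPM, Mapkapk2, the kinase that inactivates TTP, 153.0 ± 46.3 TPM and Ikbkb 129.5 ± 19.1 TPM. Malt1, the protease that cleaves Regnase-1 and Roquins after receptor signals, had 72.8 ± 7.62 TPM. Upf1, the helicase that Regnase-1 needs, had 61.2 ± 14.1 TPM. The lowest were Nufip2, a Roquin cofactor, at 39.3 ± 4.23 TPM and Btrc, a ubiquitin ligase subunit that acts on Regnase-1, at 20.6 ± 2.35 TPM. Of 8 other 3′ UTR binding proteins all were detected and 7 differed, where 79.8% of all genes did. Hnrnpd, which encodes AUF1, stood at 433.8 ± 37.3 TPM and Ybx1 at 396.8 ± 32.0 TPM. Arid5a, which protects Il6 mRNA against Regnase-1, had 129.0 ± 34.0 TPM, and the lowest were Khsrp at 39.4 ± 7.38 and Pum2 at 11.4 ± 1.1 TPM. Of 8 paralogs outside the 10 genes, 1 was detected: Btg3, at 40.1 ± 7.56 TPM.

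**Figure D5:**
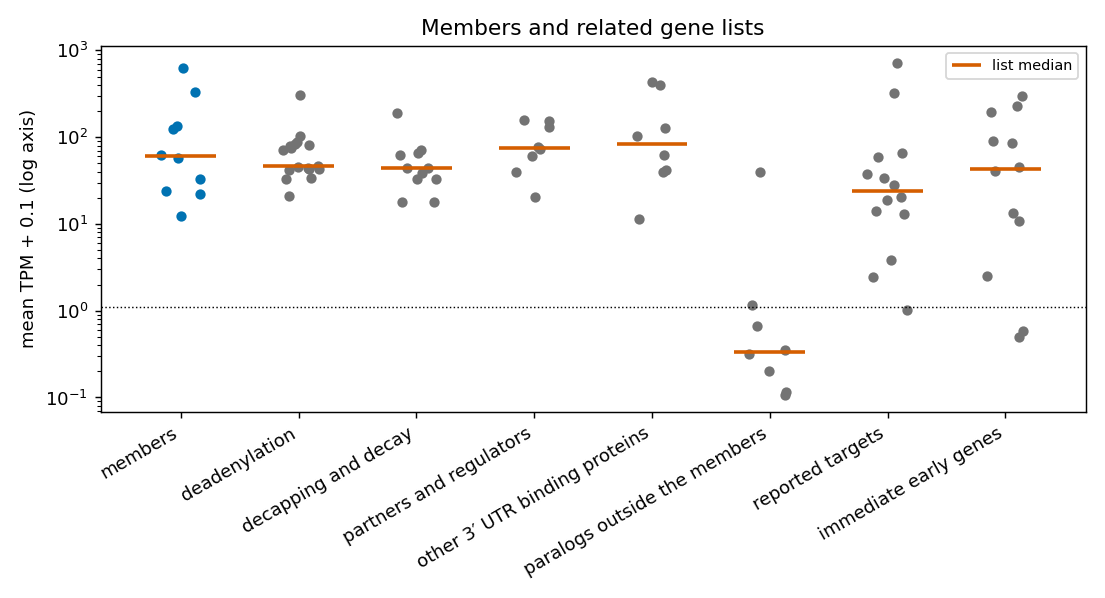
Mean TPM over 3 libraries plus 0.1 (log axis) of each gene in the 8 lists, with the list median (orange line) and the detection level of 1 TPM (dotted line). The 10 genes have a median of 60.2 TPM and the deadenylation genes 47 TPM, and the paralogs outside the 10 lie mostly under 1 TPM.

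mRNAs that these factors are known to destroy ranged from abundant to hardly detected. Of 14 reported targets, 12 were detected, with a median of 24.0 TPM, and 13 differed between libraries, where 79.8% of all genes did. The costimulators were highest. Tnfrsf4, which encodes OX40, had 724.1 ± 48.5 TPM and Icos 326.5 ± 42.9 TPM, both targets of Roquin and Regnase-1. The NF-κB genes were in the middle, with Nfkbid at 65.5 ± 6.31, Nfkbiz at 58.7 ± 15.8 and Rel at 14.1 ± 1.22 TPM. Irf4 had 27.9 ± 1.70, Ier3 20.1 ± 8.48 and Notch1, which Zfp36l1 and Zfp36l2 restrain in thymocytes, 37.4 ± 13.1 TPM.

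Cytokine mRNAs of the list lay below the costimulators, and all but Il2 differed between libraries. Il10 had 30.42, 46.1 and 24.69 TPM in libraries 1, 2 and 3, and Tnf 21.44, 11.83 and 22.69 TPM. Ifng had 26.48, 5.76 and 6.64 TPM and Csf2 7.99, 2.72 and 0.48 TPM, both high in library 1. Il2, the target that did not pass (adjusted p of the chi-square test 0.165), had 2.34 ± 0.527 TPM and Il6 0.93 ± 0.49 TPM. Of targets with the heptamer, Tnf, Ifng, Il2 and Rel were lowest in library 2. Il10, Ier3, Irf4 and Notch1 were lowest in library 3, with Il10 and Ier3 highest in library 2. Icos and Tnfrsf4, without a heptamer, were also lowest in library 2. Library 2 was lowest for 6 of the 14 targets, where it was lowest for 20.8% of genes with 1000 or more reads. It was also lowest for all 4 B cell genes and for 3 of the 4 CD8 T and natural killer genes. A link to Zfp36l2, highest in library 2, was not tested. Over all 14, library 1 was highest for 8, library 2 for 4 and library 3 for 2. Of genes with 1000 or more reads, 33.1%, 38.1% and 28.8% were highest in these libraries. Some targets had far fewer reads: Il6 had 32, 16 and 8 and Csf2 114, 36 and 8.

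Their 3′ UTRs differed in which letters they held. Of the 12 detected targets, 11 held AUUUA, 8 held the heptamer and 4 held TTCTGTGAA. Il2 had 7 pentamers in 581 bases and Tnf 8 in 764, that is 12 and 10.5 per 1000 bases, where the median detected gene had 1.21. The TTP family genes themselves lay lower, at 3.91 for Zfp36, 4.90 for Zfp36l1 and 2.74 for Zfp36l2. Tnfrsf4, with 180 bases of 3′ UTR, held none of the motifs searched. Nfkbid held 2 copies of TTCTGTGAA, and Icos, Ier3 and Tnf 1 each. The 5 pentamers of the Tnf window above contrast with the 4 of the Il2 window and the 3 of Ifng, shown because both are AU-rich T cell cytokine mRNAs.
Il2 (chr3:37121039-37121068, minus strand): tATTTATTTAaatATTTAactttaATTTAt
Ifng (chr10:118445332-118445361, plus strand): cctATTTAttaatATTTAaaactATTTAta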

How the data were processed

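The 3 polyadenylated RNA-seq libraries from 1 biological replicate were used as 1 group, numbered by the technical replicate in the labels. Expected counts as deposited are the authors' estimated reads per gene and transcript on mm10 and GENCODE M21, per the library notes, and their posterior mean columns are a second estimate. The deposited TPM corrects for transcript length and sums to a set total, and the deposited FPKM corrects for length and sequenced reads. Isoform percent as deposited is the authors' share of a gene's TPM. The smaller table holds the authors' whole-number counts per gene for GENCODE M4, per the library notes. Aligner, counter and strandedness: not given in the sources used here. All 55536 mouse identifiers matched the annotation. Spike-in entries and entries with bare numeric identifiers, 0.166% to 0.229% of reads, were left out.

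Rounded counts, for genes averaging at least 10 reads, were tested by chi-square (2 degrees of freedom) against TMM library sizes from edgeR 4.0.16 in R 4.3.3, adjusted by Benjamini-Hochberg at 0.05. A single group allowed no quasi-likelihood contrast. DESeq2 1.42.0 gave alternative size factors. The test was checked only on simulated counts with counting noise and changes set in single libraries. Other spread between libraries was not simulated. No exact test of a ratio could pass, since 3 libraries give a smallest two-sided sign-flip p of 0.25. Tables were handled in pandas 2.3.3 under Python 3.11.15, with scipy 1.17.1 and numpy 2.4.6. Whether replicates parted before or after RNA extraction is not stated, so p-values measure only the spread between these libraries. Genes named are the 10, the 3 highest and 2 lowest of each list, all targets and early genes that bear on a result, and other genes chosen after their values were seen. Members, lists, tests and motifs were chosen with earlier results of these data known. The motif TTCTGTGAA, the GC trend and ratios over coding transcripts alone were added later. Some sequence sites are not reported here.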

Additional observations from a re-analysis of the deposited data

How the results depend on the processing

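The number of the 10 genes that differed between libraries was 7 to 9 under 9 alternatives: 9 with DESeq2 size factors, no filter, a minimum mean of 50 reads or posterior mean counts, 8 without a scaling factor, 7 in the smaller gene table, and 7 to 9 with 1 library left out. Zc3h12a passed only without library 2. Rc3h2 did not pass without a scaling factor, nor Btg1 and Zfp36l1 in the smaller gene table (chi-square test, adjusted p 0.0593, 0.183 and 0.0547). Of all genes tested, 47.8% differed without a filter, 79.7% with DESeq2 size factors, 87.1% at 50 reads and 79.1% with posterior mean counts. The share was 80.1% without a scaling factor, 64.9% in the smaller gene table and 54.3% to 66.1% with 1 library left out. Paralog ratios kept their call with a pseudocount of 0.1, posterior mean TPM, FPKM or libraries with both genes at 1 TPM or more. In the smaller gene table, which is not divided by length, the log2 ratio of Rc3h1 to Rc3h2 was -0.49 and that of Btg2 to Btg1 -1.50, neither larger than the spread. There the ratio of Zfp36 to Zfp36l2 was -0.89 and that of Elavl1 to Zfp36l2 -0.94, both larger than the spread, and Elavl1 to Zfp36 turned to -0.05. Neighbours in the order of levels turned there too: Btg1 to Zfp36l2 was -1.70, Btg2 to Zfp36l1 -1.52, Zfp36l1 to Rc3h2 -0.32 and Zc3h12d to Rc3h1 -0.17. The cause was not tested. On coding transcripts alone, an alternative chosen after seeing the data, Rc3h1 to Rc3h2 turned to 0.05, Elavl1 to Zfp36 to -0.06 and Rc3h2 to Zc3h12a to -0.98, since non-coding models are left out.

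With 1 library left out, the log2 ratio of Rc3h1 to Rc3h2 ranged over -1.50 to -1.16, that of Zc3h12a to Zc3h12d over -0.03 to 0.26, that of Zfp36 to Zfp36l2 over -1.64 to -0.92, that of Zfp36l1 to Zfp36l2 over -2.74 to -1.87, that of Elavl1 to Zfp36l2 over -1.60 to -0.75 and that of Btg2 to Zfp36l1 over -0.03 to 0.23. Zc3h12a to Zc3h12d and Btg2 to Zfp36l1 turned without library 3. At a detection level of 0.1 TPM, 3 of the 8 paralogs were detected in place of 1. No paired analysis was possible because the 3 libraries form a single group.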
